A study of Homo sapiens with 12 samples.

Results

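The metallothioneins MT1A, MT1E, MT1F, MT1G, MT1M, MT1X and MT2A were examined together with the zinc sensor MTF1 and the zinc exporter SLC30A1. These 9 genes were chosen by gene name from the 58735 genes of the count table, and 6 of them (MT2A, MT1E, MT1X, MT1F, MTF1 and SLC30A1) averaged 10 or more raw counts per library, which was required for a test. Human polyA RNA was sequenced from HaCaT, an immortalized line of skin keratinocytes, and TIGK, an immortalized line of gingival keratinocytes, 2 lines grown to confluency. Untreated TIGK, H2O2-treated TIGK, untreated HaCaT and H2O2-treated HaCaT were each represented by 3 libraries, 12 in all. Treatment was 5 mM H2O2 for 3 h, and all groups were kept in DermaLife K Keratinocyte Complete Medium, a serum-free medium for keratinocytes. Each tissue was represented by a single line, so line and tissue of origin cannot be told apart. The labels of the treated libraries write the last digit of the peroxide's formula differently from replicate to replicate, whereas the protocol names H2O2 alone. No source used here states that the 3 libraries of a group came from separate cultures, so the p-values measure only the spread between these libraries, which may be technical.

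Library totals ranged from 30426401 to 49034244 counts, and replicate libraries differed by more than sampling noise in all 12 pairs compared (chi-square divided by its degrees of freedom, 4.45 to 28.15). Levels are given as normalized counts. These are raw counts divided by the library total times its TMM factor, then multiplied by the mean library total. The TMM factors lay between 0.962 and 1.04. All 9 keratinocyte markers checked (KRT5, KRT14, TP63, ITGA6, ITGB4, DSG3, PKP1, SFN and CDH1) were present in every group, and their summed level lay between 1154710 and 1411320 normalized counts. The 4 fibroblast markers summed to between 309 and 711 normalized counts. Most of this was COL1A1, with means of 601 in untreated and 653 in treated TIGK and 359 and 358 in HaCaT. PDGFRB and LUM were highest in treated TIGK, at 27.0 and 12.0, and COL1A2 was at 0 in every group. The 4 melanocyte markers summed to between 27.8 and 93.8, the 3 endothelial markers to between 5.80 and 59.7, and the 3 leukocyte markers to at most 5.92.

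Metallothioneins are small cysteine-rich proteins that bind zinc and copper and can also react with oxidants through their thiol groups. When free zinc rises in the cell, the zinc-finger factor MTF1 binds metal response elements in the promoters of metallothionein genes and of SLC30A1, which encodes the zinc exporter ZnT1 of the plasma membrane. Thiol oxidation can release zinc from metallothioneins, and for this reason the system is often studied in cells exposed to peroxide.

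The 7 metallothionein genes lie within 75998 bases of chromosome 16 (GRCh38). MT2A (ENSG00000125148) occupies chr16:56608199-56609497, MT1E (ENSG00000169715) chr16:56625475-56627112, MT1F (ENSG00000198417) chr16:56657694-56660698 and MT1X (ENSG00000187193) chr16:56682424-56684196, all on the plus strand. MT1M and MT1A follow MT1E on the plus strand, and MT1G lies between MT1F and MT1X on the minus strand. MTF1 (ENSG00000188786, chr1:37809567-37859620) and SLC30A1 (ENSG00000170385, chr1:211571568-211578742) are both on the minus strand of chromosome 1.

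Promoter sequences were available in the RefSeq table (GRCh38.p14) for 4 of the 9 genes, namely MT2A, MT1X, SLC30A1 and MTF1. The 250 bases before the RefSeq start of MT2A, MT1X and SLC30A1 are shown because these promoters hold the letters of the metal response element, and MT2A and SLC30A1 are the genes on which the results below turn. Capitals mark matches to TGCACNC or TGCGCNC on either strand. The MT2A window is chr16:56608334-56608583 (plus strand) and lies inside the deposited gene model, which begins further upstream. The MT1X window is chr16:56682220-56682469 (plus strand) and runs past the start of the deposited model at 56682424. The SLC30A1 window is chr1:211579162-211579411, read on the minus strand. It lies wholly upstream of the deposited model, which begins at 211578742. Positions below count from the RefSeq start, which differs from the start of the deposited model in all 3 genes.
MT2A: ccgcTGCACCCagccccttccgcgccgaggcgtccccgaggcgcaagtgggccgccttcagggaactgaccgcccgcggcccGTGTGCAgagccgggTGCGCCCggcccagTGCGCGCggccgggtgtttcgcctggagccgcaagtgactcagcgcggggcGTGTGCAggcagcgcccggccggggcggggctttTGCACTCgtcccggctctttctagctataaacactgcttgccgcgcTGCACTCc
MT1X: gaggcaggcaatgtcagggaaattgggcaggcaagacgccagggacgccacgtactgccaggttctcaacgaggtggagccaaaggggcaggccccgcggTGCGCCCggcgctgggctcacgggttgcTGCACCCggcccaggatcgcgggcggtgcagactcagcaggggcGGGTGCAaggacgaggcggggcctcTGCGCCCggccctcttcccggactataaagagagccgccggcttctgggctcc
SLC30A1: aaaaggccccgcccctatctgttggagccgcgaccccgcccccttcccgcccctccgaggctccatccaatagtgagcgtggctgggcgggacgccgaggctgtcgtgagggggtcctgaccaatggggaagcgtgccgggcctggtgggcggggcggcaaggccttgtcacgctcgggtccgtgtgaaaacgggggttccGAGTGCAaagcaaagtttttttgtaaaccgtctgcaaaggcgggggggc

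MT2A held 7 such matches, 5 of them on the gene's own strand, none overlapping another, with the nearest beginning at position -8 and the farthest at -246 from the start. As many matches were found in 0.0313% of the 35116 promoter windows of the table. MT1X held 4 matches, beginning at positions -150, -122, -78 and -53, a number reached by 0.37% of the windows. SLC30A1 held 1 match, at -49 on the opposite strand, and 24.8% of the windows held at least 1. The MTF1 window held 0. The letters TGACNNNGC, the core of the antioxidant response element bound by NRF2, were found once each in the windows of MT2A, MT1X and SLC30A1 and were not in that of MTF1, against 10.9% of all windows with at least 1. These matches describe letters only and carry no measurement of binding.

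The level of the 9 genes was first compared within untreated cells. MT2A, the main metallothionein of most human cells, was the most abundant of them in both lines. In RPKM, the level per length computed with the deposited gene length, untreated TIGK had 774.7 ± 95.8 for MT2A, 224.1 ± 26.9 for MT1E, 24.5 ± 1.13 for SLC30A1, 4.80 ± 0.0608 for MTF1, 4.33 ± 0.593 for MT1X and 1.46 ± 0.345 for MT1F (mean ± SD, n = 3). In untreated HaCaT the RPKM order was the same, with 641.1 ± 26.7 for MT2A, 170.1 ± 10.1 for MT1E, 24.6 ± 1.25 for SLC30A1, 6.03 ± 0.263 for MTF1, 3.32 ± 0.207 for MT1X and 0.727 ± 0.308 for MT1F. MTF1 and MT1X in TIGK did not differ beyond their spread, and the other neighbours in this order were separated by more than the sum of their SDs in both lines. The order of the lower genes depended on the length used. With the length of the canonical transcript, MT1X had 19.0 RPKM and MTF1 4.85 in untreated TIGK, and 14.6 and 6.10 in untreated HaCaT, so that MT1X ranked above MTF1. In untreated TIGK the same held for MT1F, at 6.51 RPKM. The 7 metallothioneins together took 0.128% of all counts in untreated TIGK and 0.0988% in untreated HaCaT, and MT2A made up 80.3% and 81.7% of these counts.

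**Figure D1:**
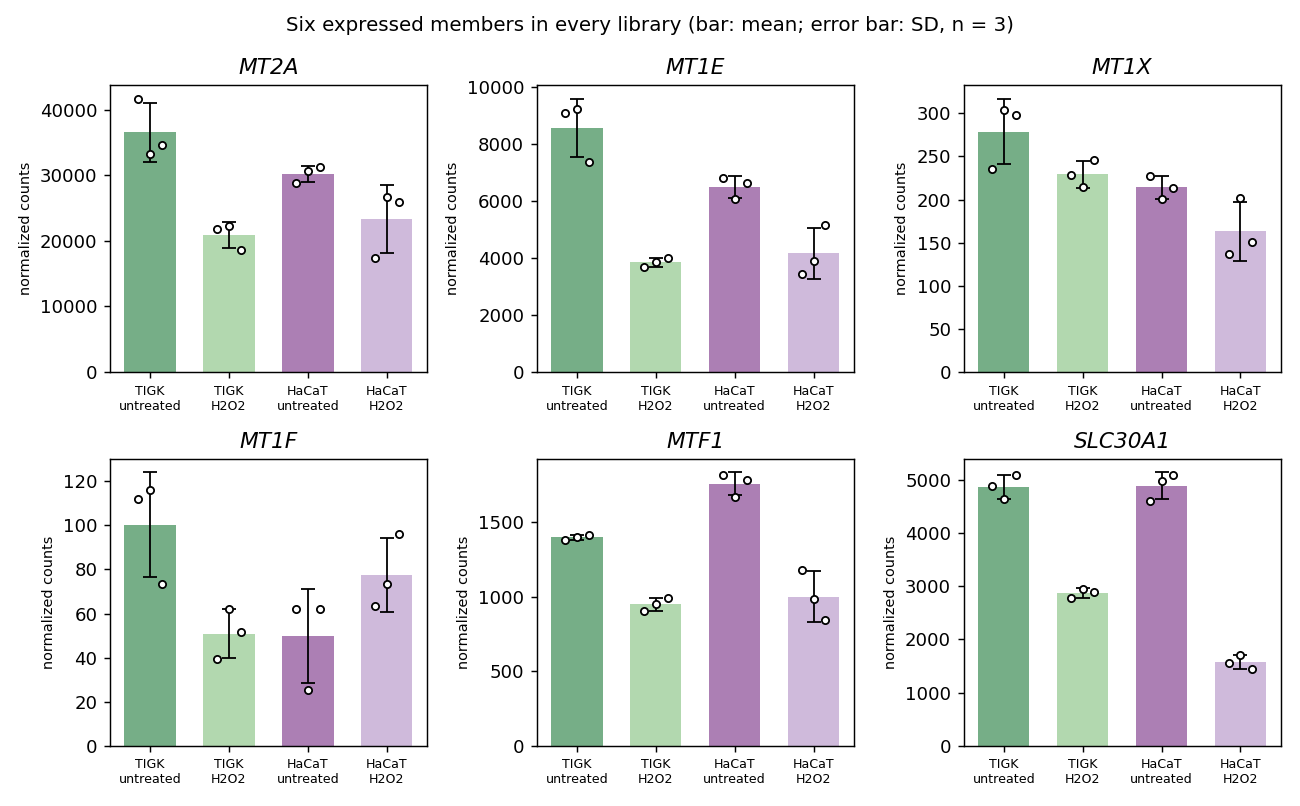
Normalized counts of MT2A, MT1E, MT1X, MT1F, MTF1 and SLC30A1 (y axes, each starting at 0) in untreated and H2O2-treated TIGK and HaCaT (x axis), with the mean as a bar, the SD over 3 libraries as error bar and each library as a point. SLC30A1 had mean normalized counts of 4861 and 4886 in the untreated lines, and of 2869 in treated TIGK against 1569 in treated HaCaT.

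The first question was how the zinc sensor and exporter changed after H2O2. SLC30A1 fell in both lines and fell further in HaCaT. MTF1 also fell in both. In untreated TIGK, SLC30A1 had 4880, 4627 and 5077 normalized counts in the 3 libraries, and in treated TIGK 2771, 2952 and 2885. In untreated HaCaT it had 4606, 4978 and 5076, and in treated HaCaT 1554, 1707 and 1446. The treated and untreated libraries did not overlap in either line, and 59.0% of the untreated mean remained in TIGK against 32.1% in HaCaT. The log2 fold change of SLC30A1 was -0.76 ± 0.0637 (SE) in TIGK (edgeR, adjusted p = 3.84e-08) and -1.64 ± 0.0660 in HaCaT (edgeR, adjusted p = 1.06e-12). In bulk RNA, fewer cells with a transcript and less of it per cell cannot be told apart, here and for every gene below.

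MTF1 had 1380, 1398 and 1416 normalized counts in untreated TIGK and 902, 951 and 992 after H2O2. HaCaT started from a higher level, with 1815, 1670 and 1785 untreated and 1181, 982 and 840 treated. Again all treated libraries of a line were below all of its untreated ones. The log2 fold change of MTF1 was -0.56 ± 0.0926 in TIGK (edgeR, adjusted p = 0.000123) and -0.81 ± 0.0924 in HaCaT (edgeR, adjusted p = 1.51e-06). MTF1 shares 691 bases with a processed pseudogene on the opposite strand, which had 0 to 3 counts per library.

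MT2A and MT1E, which held nearly all metallothionein counts, both fell after H2O2 in TIGK, whereas in HaCaT the test was passed by MT1E alone. MT2A had 41701, 33301 and 34616 normalized counts in untreated TIGK and 21799, 22337 and 18666 after H2O2. The untreated HaCaT libraries had 28808, 30704 and 31198, and the treated ones 17408, 26649 and 25908. Treated and untreated libraries were apart in both lines, although the first treated HaCaT library stood well below the other 2. The log2 fold change of MT2A was -0.80 ± 0.119 in TIGK (edgeR, adjusted p = 3.76e-05) and -0.37 ± 0.118 in HaCaT, where the adjusted p of 0.0142 missed the limit of 0.01. Without the second or the third treated HaCaT library the HaCaT value of MT2A was -0.51 or -0.46 and passed (edgeR, adjusted p = 0.00574 and 0.00483), and it passed under 6 of 21 alternatives in all.

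MT1E, the second most abundant metallothionein, had 9088, 9220 and 7379 normalized counts in untreated TIGK and 3672, 3859 and 4000 after treatment. In HaCaT it had 6792, 6060 and 6643 untreated and 3437, 3882 and 5165 treated. No treated library reached an untreated one of its line, and the drop was to 44.9% of the untreated mean in TIGK and to 64.0% in HaCaT. The log2 fold change of MT1E was -1.16 ± 0.110 in TIGK (edgeR, adjusted p = 2.03e-07) and -0.64 ± 0.109 in HaCaT (edgeR, adjusted p = 0.000113).

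MT1X and MT1F had far fewer counts, and neither passed the test in either line. MT1X had 235, 304 and 298 normalized counts in untreated TIGK, 229, 214 and 245 in treated TIGK, 228, 201 and 213 in untreated HaCaT and 137, 202 and 151 in treated HaCaT. Its treated and untreated libraries overlapped in both lines. The log2 fold change of MT1X was -0.28 in TIGK (95% confidence interval -0.60 to 0.04, edgeR, adjusted p = 0.164) and -0.40 in HaCaT (-0.73 to -0.06, edgeR, adjusted p = 0.0484), and without the second treated HaCaT library the HaCaT value was -0.61 and passed (edgeR, adjusted p = 0.00648). MT1F had 112, 116 and 73.2 normalized counts in untreated TIGK and 39.5, 61.9 and 51.5 after H2O2, but 61.9, 25.4 and 62.2 in untreated HaCaT and 63.4, 73.5 and 96.1 in treated HaCaT. All treated libraries lay below the untreated ones in TIGK and above them in HaCaT, in the latter by a narrow gap between the third untreated and the first treated library. The log2 fold change of MT1F was -0.97 in TIGK (-1.62 to -0.32, edgeR, adjusted p = 0.0203) and 0.62 in HaCaT (-0.04 to 1.28, edgeR, adjusted p = 0.114). In TIGK the value passed under 5 of 21 alternatives, namely at an adjusted p under 0.05, with DESeq2 (-0.97, adjusted p = 0.00841), with no filter (-0.94, edgeR, adjusted p = 0.00628), with only the groups compared (-0.98, edgeR, adjusted p = 0.00591) and without the second untreated HaCaT library, which enters through the shared spread (-0.97, edgeR, adjusted p = 0.00849). At 23 to 112 raw counts per library, the intervals of MT1F are the widest of the 6 genes.

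Of the 6 genes tested, 4 fell after H2O2 in TIGK (MT1E, MT2A, SLC30A1 and MTF1) and 0 rose, where 12.9% of all 16618 genes tested fell and 10.2% rose. In HaCaT 3 fell (SLC30A1, MTF1 and MT1E) and 0 rose, against 15.2% of all genes tested that fell and 18.9% that rose. At an unadjusted p under 0.05 and by DESeq2 at an adjusted p under 0.01, 0 of the 6 rose in either line. Over all genes tested, the responses had a median of 0.01 in TIGK and 0.04 in HaCaT on the log2 scale. The summed normalized count of the 7 metallothioneins went from 45481 ± 4906 to 25058 ± 1851 in TIGK and from 37008 ± 1112 to 27729 ± 5786 in HaCaT (mean ± SD, n = 3). MT2A kept the larger share of that sum after H2O2, 83.5% in TIGK and 84.0% in HaCaT, with MT1E at 15.4% and 15.1%.

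**Figure D2:**
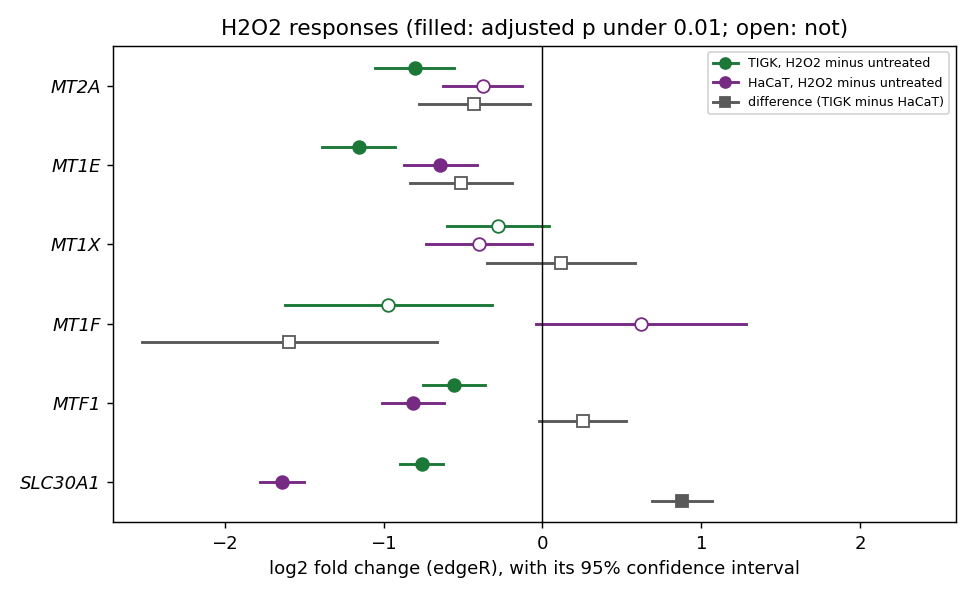
Log2 fold change after H2O2 (x axis, edgeR) with its 95% confidence interval for the 6 genes tested, in TIGK (green circles) and HaCaT (purple circles), and the difference of both responses, TIGK minus HaCaT (grey squares). Filled symbols passed an adjusted p under 0.01, and the only filled square is that of SLC30A1 at 0.88.

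The next question was whether the lines responded differently, which was tested as the difference of the responses in the same model. SLC30A1 was the only gene of the 6 that passed. Its response was less negative in TIGK than in HaCaT by 0.88 ± 0.0908 on the log2 scale (95% confidence interval 0.69 to 1.07, edgeR, adjusted p = 3.61e-06). In this comparison 2.32% of all genes tested had a higher and 2.98% a lower response in TIGK, and of the 6 genes 1 and 0 did. At an unadjusted p under 0.05, 3 of the 6 had a lower response in TIGK (MT1F, MT1E and MT2A). The share of all genes tested at this looser limit was not computed, so the 2.98% above is no background for it. DESeq2 called MT1F lower (-1.58, adjusted p = 0.00630). Over all 20 alternatives run the difference for SLC30A1 stayed between 0.82 and 1.00 and passed each time. The looser limit of 0.05, which it could not miss, is among the 20.

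The differences of the other 5 genes missed the limit. They were -1.59 for MT1F (-2.52 to -0.67, edgeR, adjusted p = 0.0243), -0.51 for MT1E (-0.83 to -0.19, edgeR, adjusted p = 0.0361), -0.43 for MT2A (-0.78 to -0.08, edgeR, adjusted p = 0.107), 0.25 for MTF1 (-0.02 to 0.53, edgeR, adjusted p = 0.229) and 0.12 for MT1X (-0.35 to 0.58, edgeR, adjusted p = 0.799). The fitted values were thus negative for 3 of the 4 metallothioneins and positive for MT1X and MTF1. The count of calls rested in part on the first treated HaCaT library, which had the lowest MT2A and MT1E and the highest MTF1 of its group. Without it 4 genes passed, with values of -0.54 for MT2A, -0.57 for MT1E and 0.45 for MTF1 beside SLC30A1 (edgeR, adjusted p = 0.00425, 0.00897 and 0.00732 for the former 3).

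The lines were then compared before treatment. Untreated TIGK had more MT1E and MT1F than untreated HaCaT and less MTF1, whereas the difference in SLC30A1 was close to 0 with a narrow interval. The log2 difference, TIGK minus HaCaT, was 0.40 ± 0.108 for MT1E (edgeR, adjusted p = 0.00304), 0.99 ± 0.310 for MT1F (edgeR, adjusted p = 0.00826) and -0.33 ± 0.0906 for MTF1 (edgeR, adjusted p = 0.00333). For SLC30A1 it was -0.01, with an interval of -0.14 to 0.12. Every untreated TIGK library lay above every untreated HaCaT library for MT2A and MT1X as well, but their differences of 0.27 (0.03 to 0.52, edgeR, adjusted p = 0.0472) and 0.38 (0.06 to 0.70, edgeR, adjusted p = 0.0355) missed the limit. MT2A passed under 5 of 21 alternatives and MT1X under 1. With only the groups compared, MT2A had 0.29 and passed (edgeR, adjusted p = 0.00222), whereas with DESeq2 it had 0.29 and missed the limit (adjusted p = 0.107). With 2 of 6 higher and 1 of 6 lower, beside 30.8% and 29.1% of all genes tested, the counts of calls did not stand apart from those over all genes.

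These baseline calls were sensitive to single libraries. Without the first untreated TIGK library none of the 6 passed, with 0.35 for MT1E, 0.91 for MT1F and -0.32 for MTF1 (edgeR, adjusted p = 0.0164, 0.0315 and 0.0125). Without the second untreated TIGK or the second untreated HaCaT library MTF1 alone passed, and MT1E was 0.32 or 0.35 and MT1F 0.86 or 0.69. MT1F also missed the limit without the second or the third treated TIGK or the second treated HaCaT library (0.97 each time), and MTF1 without the first or the third untreated HaCaT library (-0.31 and -0.30).

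Among the 6 genes tested, the 2 lines differed chiefly in SLC30A1 after H2O2. Treated TIGK had more SLC30A1 than treated HaCaT by 0.87 ± 0.0657 on the log2 scale (edgeR, adjusted p = 6.64e-10), and its lowest treated library, at 2771 normalized counts, was above the highest of HaCaT, at 1707. MT1X was higher in treated TIGK by 0.50 ± 0.159 (edgeR, adjusted p = 0.00979), with 214 as the lowest TIGK and 202 as the highest HaCaT library. This call for MT1X was lost without the third untreated TIGK, the first or the third treated TIGK, the first or the second untreated HaCaT or the first or the third treated HaCaT library, with values between 0.43 and 0.50. The treated libraries of both lines overlapped for MT2A (-0.16, interval -0.40 to 0.09), MT1E (-0.11, -0.34 to 0.12) and MTF1 (-0.08, -0.27 to 0.12). MT1F did not overlap and had -0.60 (-1.26 to 0.06, edgeR, adjusted p = 0.0978). Of the 6 genes 2 were higher and 0 lower in treated TIGK, against 29.8% and 30.2% of all genes tested. Of the 4 genes that were not called, 0 had an unadjusted p under 0.05, and DESeq2 called 0 lower, but without the first treated HaCaT library MT2A was lower in TIGK by the test (-0.29, edgeR, adjusted p = 0.00695).

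The remaining 3 metallothioneins were at or near the limit of detection. MT1G, a metal-inducible member of the family, had 0 counts in all 6 TIGK libraries, but 11, 10 and 6 raw counts in untreated and 6, 4 and 3 in treated HaCaT. Against a floor of 3 counts per library in TIGK, the mean of MT1G in HaCaT was 2.73-fold higher before and 1.67-fold higher after H2O2. These ratios leave out the counting error of the HaCaT libraries. With no filter on low counts, MT1G was lower in untreated TIGK than in untreated HaCaT (edgeR, adjusted p = 0.00215). Between the treated lines it missed the limit (edgeR, adjusted p = 0.0101). The fit with no filter can give far smaller p-values than the main fit at a similar effect. There the HaCaT response of MT2A had -0.40 (edgeR, adjusted p = 1.61e-11), against -0.37 in the main fit (edgeR, adjusted p = 0.0142). The call of MT1G rests on that fit alone and on few counts. MT1A had 3 counts in all, 1 in the third untreated and 2 in the first treated HaCaT library. MT1M had 0 counts in all 12 libraries. At these totals a count of 0 allows up to 3 counts per library, counting error only. Expression of MT1M in either line, or of MT1A in TIGK, below this level could thus have been missed.

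Another gene of the cluster was also counted in HaCaT alone. MT1L, a transcribed pseudogene between MT2A and MT1E, had 0 counts in all 6 TIGK libraries and 141, 148 and 155 normalized counts in untreated HaCaT. In treated HaCaT it had 148, 234 and 275, and its response missed the limit (log2 fold change 0.57, interval 0.05 to 1.08, edgeR, adjusted p = 0.0660). Against the same floor in TIGK, the mean of MT1L in HaCaT was 47.8-fold higher before treatment and 75.5-fold higher after it. Of the 13 other metallothionein genes and pseudogenes listed, MT1L alone averaged 10 or more raw counts. MT1B, MT1H, MT1CP and MT1IP had 0 counts in all libraries, and MT3, MT4, MT1DP and MT1JP had 5, 8, 2 and 26 counts in all.

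**Figure D3:**
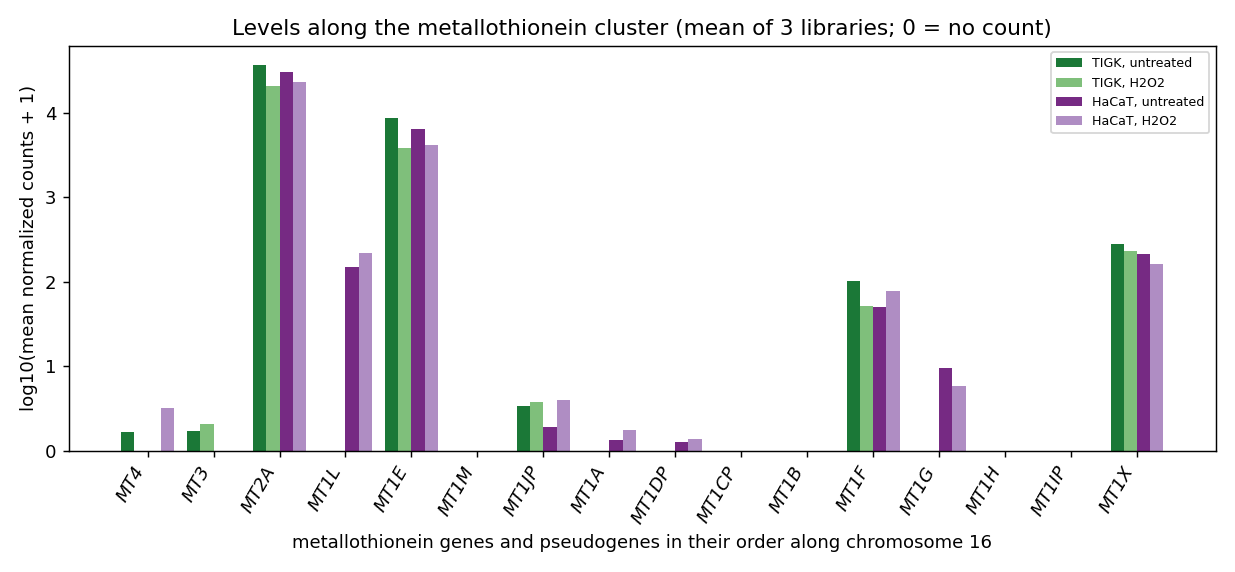
Mean normalized counts over 3 libraries, plotted as log10(mean + 1), for the metallothionein genes and pseudogenes of chromosome 16 in their order along the chromosome, with a bar for each of the 4 groups. MT2A and MT1E stand highest in all groups, and bars of MT1L and MT1G are seen for HaCaT alone, at 148 and 8.46 normalized counts in untreated cells.

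Reads from such similar genes can be assigned to a wrong copy. In an exact comparison of the canonical transcripts with 21 family genes of GENCODE release 44, 5.8% to 19.9% of all windows of 50 bases in the 7 metallothioneins were found in another family gene as well, and 0% of the windows of 100 or 150 bases. The longest shared run was 96 bases, between MT1G and MT1X. Reads were 150 bases long and paired, but how reads with several matches were counted is not given in the sources used here, so the values of the rarer copies are uncertain. MT1X also shares 1727 of its 1773 bases with a processed transcript on the same strand, which had 0 counts. How reads that overlap both genes were counted is not given either. The 0 counts there thus do not show that MT1X lost no reads, and its level and rank may be too low.

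The wider zinc and copper genes were examined as lists. Of the 9 other members of the SLC30A zinc exporter family 6 were tested, and SLC30A7, a transporter of the early secretory pathway, was the gene that passed the test after H2O2, 1 of 6 in each line, which is close to the 12.9% of all genes tested that fell in TIGK and the 15.2% in HaCaT. SLC30A7 fell from 2054 ± 58.1 to 1508 ± 91.5 normalized counts in TIGK (log2 fold change -0.44, edgeR, adjusted p = 7.52e-05) and from 1751 ± 90.9 to 1221 ± 90.7 in HaCaT (-0.52, edgeR, adjusted p = 1.28e-05). On the log2 scale the list had a median of -0.16 in TIGK and 0.11 in HaCaT, beside 0.01 and 0.04 for all genes tested. In TIGK SLC30A9 had 0.20 (interval 0.08 to 0.32, edgeR, adjusted p = 0.0104) and SLC30A4 -0.46 (-0.77 to -0.15, edgeR, adjusted p = 0.0203), both short of the limit. Between the lines, SLC30A4, SLC30A7 and SLC30A9 were higher in TIGK both before (1.83, 0.23 and 0.86) and after H2O2 (0.98, 0.31 and 1.08), where SLC30A6 (0.26) was also higher and SLC30A5 (-0.24) lower. The calls of SLC30A7 before and of SLC30A5 after H2O2 were lost under 9 and 12 of 21 alternatives.

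The SLC39A family, which carries zinc into the cytoplasm, had 11 of 14 genes tested. In TIGK SLC39A14 and SLC39A6 fell (-0.31 and -0.27, edgeR, adjusted p = 0.000103 and 0.000635), whereas in HaCaT SLC39A10 and SLC39A3 rose (0.48 and 0.46, edgeR, adjusted p = 1.33e-05 and 0.000272), and these were the genes called. Over all genes tested 12.9% fell in TIGK and 18.9% rose in HaCaT, so 2 of 11 was close to the background in each line. SLC39A10 had 3542, 3837 and 3662 normalized counts in untreated and 3579, 3503 and 3413 in treated TIGK, where the groups overlapped. It had 1398, 1532 and 1586 in untreated and 2293, 2004 and 2010 in treated HaCaT, where they did not. The difference of the responses was -0.56 for SLC39A10 (edgeR, adjusted p = 0.000596) and -0.31 for SLC39A6 (edgeR, adjusted p = 0.0088), and the latter call was lost under 14 of 20 alternatives. In the TIGK response SLC39A6 also missed the limit without the second or the third treated TIGK library (-0.22 and -0.21). The list's median was 0.06 in TIGK and 0.23 in HaCaT. Between the untreated lines 5 of the 11 were higher in TIGK, led by SLC39A8 (3.60) and SLC39A4 (2.10), and 4 were lower, with SLC39A13 at -1.06 and SLC39A3 at -1.02, and after H2O2 the counts were again 5 and 4. Over all genes tested 30.8% were higher and 29.1% lower in untreated TIGK, and 29.8% and 30.2% after H2O2.

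Of the 10 copper-handling genes listed 9 were tested. After H2O2 1 of the 9 rose and 0 fell in TIGK, and 2 rose and 1 fell in HaCaT. These counts were close to the background. Over all genes tested 10.2% rose and 12.9% fell in TIGK, and 18.9% rose and 15.2% fell in HaCaT. COX17, a copper chaperone of the mitochondrion, rose in TIGK (0.73, edgeR, adjusted p = 0.00166), and CCS, the copper chaperone of SOD1, and COMMD1 rose in HaCaT (0.35 and 0.59, edgeR, adjusted p = 0.00449 and 0.00356), while SCO1 fell there (-0.24, edgeR, adjusted p = 0.00269). In the other line these genes missed the limit with values of the same sign, at 0.44 for COX17 in HaCaT (edgeR, adjusted p = 0.0302) and 0.24 for CCS, 0.27 for COMMD1 and -0.19 for SCO1 in TIGK, and the differences of the responses missed it too (edgeR, adjusted p from 0.368 to 0.786). The call of COX17 was lost without the third untreated or the third treated TIGK library (0.64 and 0.54), that of SCO1 without the first untreated HaCaT library (-0.22), and those of CCS and COMMD1 under 8 and 5 of 21 alternatives. The list's median was 0.21 in TIGK and 0.28 in HaCaT. Between the lines 2 were higher and 3 lower in untreated TIGK, and 2 and 4 after H2O2, beside 30.8% and 29.1% of all genes tested before and 29.8% and 30.2% after it. Of the 4, ATOX1 lost its call under 10 of 21 alternatives.

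Genes that metals or oxidants can induce moved in both directions. Of 7 such genes 3 rose, 2 fell and 2 did not pass in each line, beside 10.2% higher and 12.9% lower over all genes tested in TIGK and 18.9% and 15.2% in HaCaT. Here the heat shock genes HSPA1A, HSPA1B and DNAJB1 rose in both lines, and SLC7A11, the cystine transporter, and GCLM, a subunit of the enzyme that starts glutathione synthesis, fell in both. HSPA1A went from 5186 ± 821 to 14227 ± 190 normalized counts in TIGK (1.46, edgeR, adjusted p = 1.69e-09) and from 3900 ± 203 to 14793 ± 2080 in HaCaT (1.92, edgeR, adjusted p = 4.85e-11). DNAJB1 rose by 0.97 in TIGK and 0.81 in HaCaT, and HSPA1B by 0.87 and 1.71. HSPA1A and HSPA1B are near-identical copies, so the division of reads between them is uncertain. SLC7A11 fell by 0.94 on the log2 scale in TIGK and by 0.61 in HaCaT (edgeR, adjusted p = 4.30e-09 and 2.10e-06). GCLM changed by -0.34 and -0.35, and its call in TIGK was lost without the first or the third untreated TIGK library or any of the 3 treated ones, and in HaCaT without the third untreated library (-0.30). HMOX1, the inducible heme oxygenase, did not pass in either response and had 184 ± 38.8 and 215 ± 19.3 normalized counts in untreated and treated TIGK against 11.5 ± 2.69 and 10.8 ± 3.22 in HaCaT. The list's median was 0.22 in TIGK and 0.12 in HaCaT. Between the lines 6 of the 7 were higher and GCLM lower in untreated TIGK, and 4 were higher and GCLM lower after H2O2, where over all genes tested 30.8% were higher and 29.1% lower before and 29.8% and 30.2% after H2O2.

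**Figure D4:**
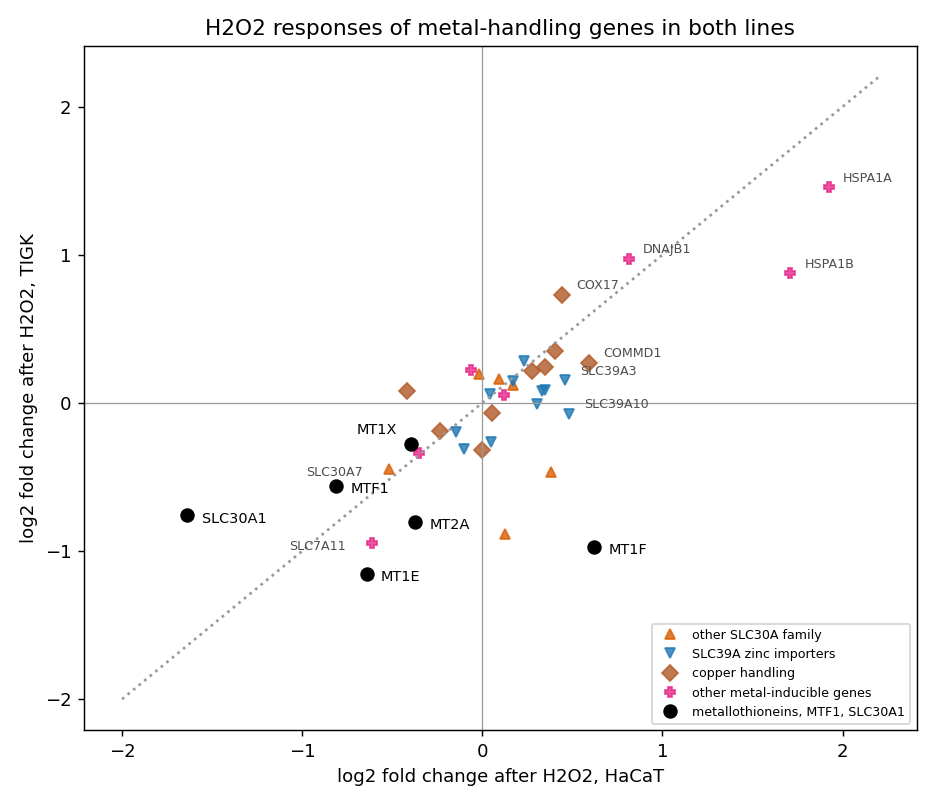
Log2 fold change after H2O2 in HaCaT (x axis) and in TIGK (y axis) of the 6 genes described (black circles) and of the tested genes of the zinc exporter, zinc importer, copper and metal-inducible lists, with equal change in both lines on the dotted diagonal. SLC30A1 lies above the diagonal at -1.64 in HaCaT and -0.76 in TIGK, and HSPA1A and HSPA1B lie to the right.

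Genes with the most similar pattern were sought by Pearson's r of log2 CPM over the 12 libraries, among 11773 genes. The 12 points share 2 lines and 1 treatment, so the r values describe group levels for the most part. For MT2A the closest were B3GNT2 (0.931), KCTD21 (0.914), MT1E (0.906), IL6ST (0.905) and FGFRL1 (0.903). The metallothionein MT1E was thus among the 5 genes closest to MT2A. For SLC30A1, ZNF791 (0.986), SDC4 (0.984), CFLAR (0.983) and CYP24A1 (0.982) were among the closest. ZNF791 had 1382 and 936 mean normalized counts in untreated and treated TIGK and 1248 and 616 in HaCaT.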

How the data were processed

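RNA-seq libraries of HaCaT and TIGK, untreated or after H2O2, were analysed from the raw read counts per gene that the authors deposited. Per the study's methods, reads were mapped to GRCh38 with HISAT2 and counted with featureCounts (1.5.0-p3). The submitters' processing notes name HISAT2 2.0.5 and 2.0.0 and StringTie 1.3.3b. The annotation release, strand use and handling of multi-mapping reads are not given in the sources used here. Deposited gene lengths, in bases, served for RPKM, and the length of the canonical transcript was an alternative chosen after seeing the data. The 4 deposited tables of the authors' comparisons hold fold changes and p-values and were not used. In the count table, 0 rows lacked a gene and 0 columns of sample values went unused.

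Counts of the 16618 genes that averaged 10 or more raw counts per library were fitted with edgeR 4.0.16 (quasi-likelihood test, TMM, 1 mean per group, all 12 libraries) in R 4.3.3 with limma 3.58.1. The p-values were adjusted by the Benjamini-Hochberg method across these genes, and calls were made under 0.01. Alternatives were DESeq2 1.42.0, RLE size factors, library totals, mitochondrially encoded genes left out, no filter, a minimum of 50, an adjusted p under 0.05, a fit of only the groups compared, a replicate block and leaving out each library. Python 3.11.15 with matplotlib 3.10.9 was used for figures. The fit was tested on simulated data with changes set in TIGK. It called 28 of 67 genes changed by 0.5 on the log2 scale, 46 of 65 changed by 1 and 65 of 68 changed by 2. Of the unchanged genes it called 0. Small changes were thus often missed, so a missed limit does not show that a gene was unchanged. Library totals of 30426401 to 49034244 counts set the precision, and floors of 3 counts cover counting error only. All 9 genes were named whatever their values, and of the other lists the genes called. The genes and lists were chosen with earlier results of these data known. Replicate numbers named libraries only. Of the genes most similar in pattern to SLC30A1, 1 is not reported here.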

Additional observations from a re-analysis of the deposited data

Results flagged for a closer look

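The H2O2 response of SLC30A1 differed between the lines by 0.88 on the log2 scale (TIGK minus HaCaT, edgeR, adjusted p = 3.61e-06), with all 3 treated libraries below the untreated ones in each line. SLC39A10 differed by -0.56 (edgeR, adjusted p = 0.000596), and this call was kept under all 20 alternatives. SLC39A6 differed by -0.31 (edgeR, adjusted p = 0.0088) and lost the call under 14 of 20 alternatives. HSPA1B differed by -0.84 (edgeR, adjusted p = 0.00476) and lost the call under 7 of 20, and its reads cannot be separated with certainty from those of HSPA1A.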

How the results depend on the processing

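In the responses of each line, SLC30A1, MTF1 and MT1E, and MT2A in TIGK, kept direction and call under all 21 alternatives, as did SLC30A1 between the treated lines. The alternative at an adjusted p under 0.05 reads the main fit at a looser limit. A call made under 0.01 could not be lost there, which holds wherever alternatives are counted. With all libraries kept, the number of the 6 genes that passed changed by over 1.5 times in these cases. For untreated TIGK against HaCaT it was 5 with no filter (8 genes tested, MT1G included) and 5 at an adjusted p under 0.05, in place of 3. For the HaCaT response it was 5 at that limit in place of 3. For the difference of the responses it was 2 with DESeq2, 4 with no filter and 3 at 0.05, in place of 1. For the treated lines it was 1 in place of 2 when only the groups compared were fitted. Leaving out each library gave 4 to 5 in the TIGK response, 3 to 5 in the HaCaT response, 0 to 4 between the untreated lines, 1 to 2 between the treated lines and 1 to 4 for the difference. Without a TMM factor MTF1 of the untreated lines was -0.26 and missed the limit (edgeR, adjusted p = 0.0251). In the same fit MT2A of the untreated lines was 0.35 and passed (edgeR, adjusted p = 0.00946). Signs turned only for values that passed in neither setting. The untreated difference of SLC30A1 was 0.0052 with DESeq2, 0.0052 with RLE factors, 0.067 with library totals, 0.0054 with only the groups compared, and -0.048 to 0.043 when each library was left out, above 0 without the second TIGK, the second HaCaT or the third HaCaT untreated library. After H2O2, MTF1 ranged from -0.19 to 0.10, above 0 without the first treated HaCaT library, and MT1E from -0.19 to 0.072, above 0 without the third. Where a cause is not named, it was not tested.

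Same-numbered libraries did not deviate together (correlations from -0.0319 to 0.0257 over 12 pairs). With the replicate number as a block, 1 in place of 2 genes passed between the treated lines, where MT1X had 0.50 (edgeR, adjusted p = 0.0132), and MT1F of the untreated lines had 1.01 (edgeR, adjusted p = 0.0150). The block changed no other call among the 6 genes.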
